A study of Homo sapiens with 48 samples.

Results

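The MYC and MAX network was described here by the transcripts of 9 genes, all of the rows of the count table that carry the symbols MYC, MYCN, MYCL, MAX, MXD1, MXD3, MXD4, MNT and MGA, among 60610 listed genes. None of the 9 was lost to the low-count filter, which left 19626 genes for testing. The cells were HEK293, a transformed human embryonic kidney line, of the single clone B6 that carries a stable AT1R transgene (the type 1 receptor of angiotensin II) and had been selected with puromycin, so every group including the controls shares the receptor and the selection. Poly(A) RNA was sequenced after 6 h or 24 h in serum-free medium without stimulus (control), with 1 nM angiotensin II (AII), with 10 µg/L epidermal growth factor (EGF), or with both (AII + EGF). Of 48 deposited libraries, 6 for each of the 8 groups, 38 were used: 4 of control, 5 of AII, 3 of EGF and 4 of AII + EGF at 6 h, and 6, 5, 5 and 6 in the same order at 24 h.

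MYC is a basic helix-loop-helix leucine zipper transcription factor that binds E-box DNA (core CACGTG) only as a heterodimer with MAX and activates genes of growth, ribosome production and metabolism. MAX also pairs with the MXD proteins and with MNT, which recruit SIN3 and HDAC corepressors to the same sites, and with MGA, a scaffold of the Polycomb complex PRC1.6, so that the balance of these partners sets the output of shared targets. MYC is known as an immediate-early gene of growth factor signalling with a short-lived mRNA, and MXD genes as genes of resting and differentiating cells.

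The libraries left out were 8 that form 4 near-identical pairs (chi-square per degree of freedom 0.397 to 0.505, where the next closest of 1128 pairs reached 2.02) and 2 whose profile went against their label. On a scale from AII 6 h (0) to AII + EGF 6 h (1) over 1492 genes, 0.851 was found for the library labelled AII 6 h replicate 6 and −0.00486 for that labelled AII + EGF 6 h replicate 6. The 38 libraries held 17.8 to 29.96 M counts. The neurofilament genes NEFM (2585 to 9353 CPM, counts scaled to library size) and NEFL (545 to 1721 CPM) and VIM (161 to 562 CPM), which HEK293 cells are known to express, were high in each library, while NEFH reached at most 0.642 CPM, and the blood cell genes PTPRC, CD3E and HBB at most 0.140 CPM. AGTR1, which encodes AT1R, lay between 3913 and 15975 CPM. The sample titles fall into 8 stretches that each pass once through the treatments at 1 time point, called title runs here. The 4 libraries of title run 8 (replicate 6 of each 24 h group) stood apart for some members. MYC and MYCN were lowest and MXD3 was highest in run 8 in 4 of 4 groups, while MYCL was neither in any group. For MYC in control the margin was small (481 against 486 CPM). The share of all genes with such a pattern was not counted. Control 6 h replicate 6, the only library of title run 7 in use, had the lowest MYCN (0.307 CPM) and MAX (69.2 CPM) of the 6 h controls. Its MXD3 (34.8 CPM) and MNT (51.9 CPM) were the highest of them.

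By RefSeq (GRCh38.p14), MYCN lies at chr2:15940550-15947004, MXD1 at chr2:69915109-69942945, MYCL at chr1:39895428-39901917, MAX at chr14:65006101-65102695, MXD3 at chr5:177305499-177312752, MXD4 at chr4:2247432-2262109, MNT at chr17:2384073-2401060 and MGA at chr15:41621224-41769940. Promoter sequence was matched for 8 of the 9 genes, with 11 entries. The promoters of the 4 antagonist genes, 250 bases before the start of transcription, are shown because MXD3 and MXD4 moved together at 6 h while MXD1 and MNT did not pass the test there. Capitals mark the E-box core CACGTG, the AP-1 motif TGANTCA and the EGR motif GCGNGGGCG, searched on both strands. MXD4 (chr4:2262110-2262359, minus strand) held CACGTG from position −238 relative to the start, MNT (chr17:2401061-2401310, minus strand) held CACGTG from −193 and GCGNGGGCG from −65, MXD3 (chr5:177312753-177313002, minus strand) held TGANTCA from −79, and MXD1 (chr2:69914859-69915108, plus strand) held none of the 3.
MXD4: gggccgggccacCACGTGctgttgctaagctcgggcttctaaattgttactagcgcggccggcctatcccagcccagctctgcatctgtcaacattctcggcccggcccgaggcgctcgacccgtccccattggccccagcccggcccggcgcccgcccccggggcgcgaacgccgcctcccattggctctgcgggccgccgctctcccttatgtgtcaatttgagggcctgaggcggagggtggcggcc
MXD3: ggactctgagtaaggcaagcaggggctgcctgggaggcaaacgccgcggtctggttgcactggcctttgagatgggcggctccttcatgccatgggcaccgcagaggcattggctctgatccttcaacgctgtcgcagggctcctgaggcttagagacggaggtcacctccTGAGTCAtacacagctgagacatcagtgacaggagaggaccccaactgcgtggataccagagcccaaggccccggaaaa
MNT: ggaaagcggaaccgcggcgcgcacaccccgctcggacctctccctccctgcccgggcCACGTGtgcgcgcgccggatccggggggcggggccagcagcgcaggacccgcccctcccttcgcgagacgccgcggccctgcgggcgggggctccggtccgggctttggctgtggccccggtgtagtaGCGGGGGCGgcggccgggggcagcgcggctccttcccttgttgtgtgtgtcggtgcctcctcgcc
MXD1: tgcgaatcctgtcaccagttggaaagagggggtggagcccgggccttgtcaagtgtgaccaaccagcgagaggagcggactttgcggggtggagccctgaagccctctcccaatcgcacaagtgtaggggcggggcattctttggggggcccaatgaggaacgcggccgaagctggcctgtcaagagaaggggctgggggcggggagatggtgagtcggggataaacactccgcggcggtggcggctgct

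Of all 35116 promoter entries of this length, 6.34% held CACGTG, 6.57% TGANTCA and 8.41% GCGNGGGCG. The letters CACGTG were found in 2 of the 11 entries of the network, those of MXD4 and MNT. GCGNGGGCG stood in the entry of MNT and in entry 3 of MGA (from −100), and TGANTCA in that of MXD3 only. A match of letters is no binding site, and the 2 genes that fell most at 6 h, MXD3 and MXD4, shared none of the 3 motifs in these windows. Whether these windows bear on the changes was not tested.

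Per kilobase of the canonical transcript (GENCODE), MYC was the most abundant member with a median of 154 CPM per kb over the 38 libraries (125 to 218). MXD4 followed with 42.6 (29.8 to 59.0), MAX with 31.7 (21.5 to 51.5) and MXD3 with 24.1 (12.9 to 35.98), and the ranges of these 3 neighbours overlapped. MNT (8.02), MGA (6.89), MYCL (5.50) and MXD1 (4.96) formed a lower tier whose ranges also overlapped, from 3.56 to 11.1 CPM per kb. MYCN was lowest at 0.606 CPM per kb, with 7 to 60 counts per library. MYC was thus above each library of each other member, and MYCN below.

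**Figure D1:**
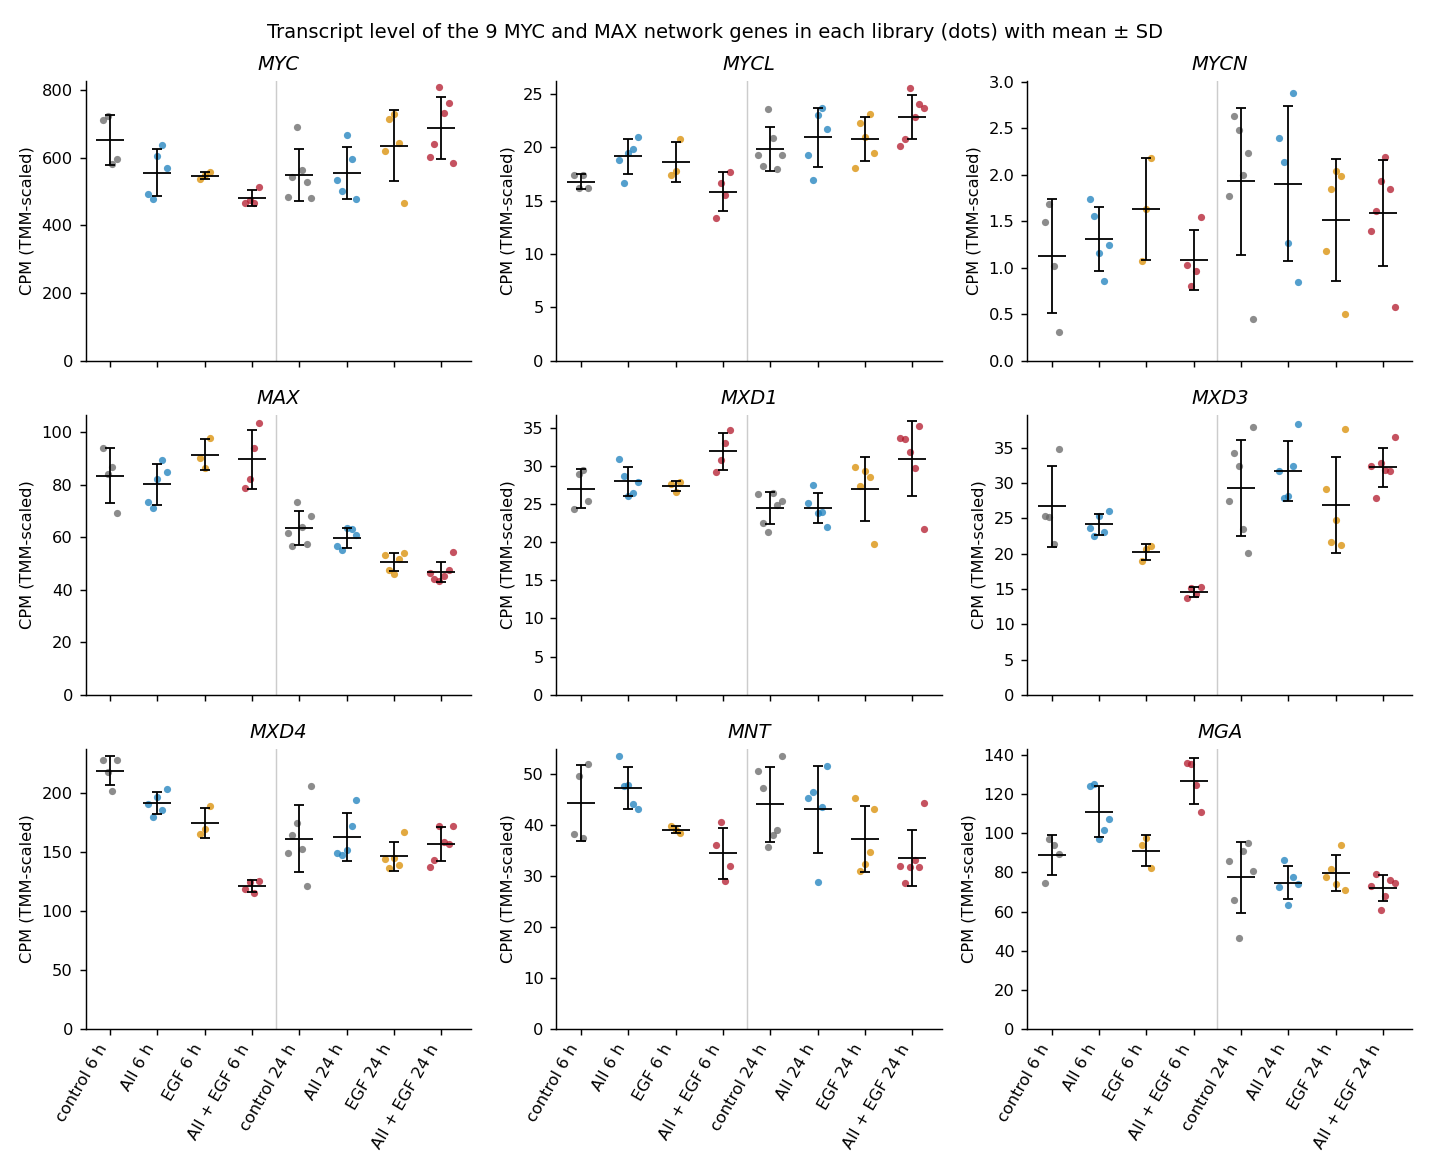
CPM scaled with TMM factors (y axis, from 0) of the 9 genes in each of the 38 libraries (dots, in the order of the replicate number), in the 8 groups on the x axis, with mean and SD as black bars. MXD4 stepped from a mean of 219 CPM in control at 6 h to 121 CPM under AII + EGF, where the 4 libraries of MXD3 lay between 13.7 and 15.2 CPM below all others, and MAX was lower at 24 h than at 6 h in each treatment.

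The first question was which members responded to each stimulus, relative to untreated cells of equal time. A member passed the test at a Benjamini-Hochberg adjusted p under 0.01 over all tested genes (edgeR's quasi-likelihood test), and was called when it also changed at least 1.5-fold and exceeded 5 CPM. Nothing in the labels says that libraries of a group came from separate cultures, so p-values measure only the spread between these samples, which may be technical. In bulk RNA, fewer cells of a type and less RNA per cell cannot be told apart.

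AII + EGF at 6 h changed 4 of the 9 members, 3 downward (MXD4, MXD3 and MYC) and 1 upward (MGA), where 23.4% of all tested genes passed (12.4% higher, 11% lower). MXD4 and MXD3 were called, with 12% of all genes called. The groups did not overlap for the same 4 members, as for 33.4% of all genes. AII alone changed 0 of 9 at 6 h (0.922% of all genes passed, 0.469% called), with 1 member, MGA, at an unadjusted p under 0.05, as had 2367 of all 19626 genes. EGF alone changed 0 of 9 (3.37% of all genes passed, 1.94% called), with MXD4 and MXD3 at an unadjusted p under 0.05, as had 3489 of all genes. DESeq2 called 0 members under either single stimulus. EGF at 6 h had only 3 libraries, and these did not overlap with control for MYC, MXD3 and MXD4, as for 22.1% of all genes.

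MXD4 encodes a MAX-binding repressor of the MAD family and had the smallest p of the members under AII + EGF at 6 h, where its change was close to that of MXD3. Its level was 228, 218, 202 and 228 CPM in the 4 control libraries at 6 h, and 119, 125, 115 and 126 CPM under AII + EGF. The 5 AII libraries had 191, 180, 197, 186 and 204 CPM, and the 3 EGF libraries 165, 170 and 189 CPM. All joint libraries thus lay below every control, AII and EGF library, EGF lay below control throughout, and AII overlapped with control. The joint change was −0.86 ± 0.11 on the log2 scale (SE), a level 1.81-fold lower than in control (adjusted p = 5.37e-08). Under EGF the log2 change was −0.33 ± 0.12 (adjusted p = 0.0931) and under AII −0.20 ± 0.10 (adjusted p = 0.451), neither past the threshold. MXD4 was also lower under AII + EGF than under AII (−0.66 ± 0.10, adjusted p = 4.87e-06) and than under EGF (−0.53 ± 0.12, adjusted p = 0.0017), where 17.6% and 5.41% of all genes passed (7.6% and 2.92% called). The last difference missed the threshold without EGF 6 h replicate 5 (−0.47, adjusted p = 0.02285), with all 48 libraries (−0.39, adjusted p = 0.0318), with 40 libraries (−0.40, adjusted p = 0.114) and with only title runs 4 and 5 at 6 h (−0.53, adjusted p = 0.0364). Within title runs 4 and 5, the 6 h runs that keep both groups, the joint difference was −0.95 and −0.68.

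MXD4 kept its call against control under each alternative tried, with log2 changes from −0.96 to −0.63. The smallest came with all 48 libraries, where the library labelled AII + EGF 6 h replicate 6 had 177 CPM and AII + EGF 6 h replicate 4, near-identical to EGF 6 h replicate 1, had 142 CPM. At 24 h MXD4 ranged from 122 to 206 CPM in control (median 159) and from 137 to 172 CPM under AII + EGF (median 158). The groups overlapped widely and the log2 change was −0.04 ± 0.09 (adjusted p = 0.78, 95% interval −0.22 to 0.13). The joint response differed between the times by 0.81 ± 0.14 (adjusted p = 2.55e-05).

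MXD3, a further MAD family repressor known from proliferating cells, moved with MXD4 at 6 h. Control libraries had 25.3, 25.2, 21.4 and 34.8 CPM, and AII + EGF libraries 13.7, 15.2, 14.3 and 15.2 CPM. AII libraries had 23.7, 22.6, 25.3, 23.02 and 26.1 CPM and EGF libraries 18.9, 20.7 and 21.2 CPM. The joint libraries lay below all others at 6 h, and EGF lay just below control. The joint change was −0.87 ± 0.16 (log2), or 1.83-fold lower (adjusted p = 5.01e-05), and against AII it was −0.73 ± 0.16 (adjusted p = 0.000458). Under EGF alone it was −0.40 ± 0.17 (adjusted p = 0.197), and AII + EGF against EGF −0.47 ± 0.17 (adjusted p = 0.0777). Leaving out single libraries gave joint changes against control from −0.96 to −0.72, always past the threshold. With only title runs 4 and 5 at 6 h, an alternative chosen after seeing the data, the joint change was −0.71 (adjusted p = 0.0148), and the difference from AII missed the threshold there (−0.77, adjusted p = 0.0123), with 40 libraries (−0.46, adjusted p = 0.0673) and with all 48 libraries (−0.47, adjusted p = 0.059). At 24 h the 6 AII + EGF libraries (27.9 to 36.5 CPM, median 32.2) lay within the range of control (20.1 to 37.9 CPM, median 29.9), with a log2 change of 0.14 ± 0.13. The joint response differed by 1.01 ± 0.21 between 24 h and 6 h (adjusted p = 0.000298).

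MYC (chr8:127735434-127742951, GRCh38.p14) was lower, not higher, after 6 h of AII + EGF. Its 4 control libraries had 711, 724, 580 and 597 CPM and the 4 joint libraries 467, 476, 467 and 515 CPM. The AII libraries had 493, 478, 605, 638 and 569 CPM and the EGF libraries 536, 548 and 559 CPM. Joint and EGF libraries lay below every control library, while AII overlapped with control. The joint change was −0.44 ± 0.13 (log2), 1.36-fold lower and just past the threshold (adjusted p = 0.00798). Under AII the log2 change was −0.23 ± 0.12 (adjusted p = 0.469) and under EGF −0.25 ± 0.14 (adjusted p = 0.36). The joint change no longer passed without control 6 h replicate 3 (adjusted p = 0.0295) or 4 (0.0335), and without AII + EGF 6 h replicate 1 (0.0224), 2 (0.0192), 3 (0.0233) or 5 (0.0107), with log2 changes from −0.47 to −0.39. It also missed the threshold under 5 of 9 other alternatives, and the log2 change ran from −0.54 to −0.35 over the 9, always downward. Within title runs 4 and 5 the joint difference was −0.62 and −0.17. AII + EGF replicates 1 and 2 come from title run 1, for which no control was used. The AII libraries of that run (493 and 478 CPM) were the lowest of their group.

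At 24 h the direction of MYC was the other. Control libraries ranged from 481 to 692 CPM (median 535) and AII + EGF libraries from 584 to 810 CPM (median 687), so that the groups overlapped but shifted upward. The log2 change of 0.33 ± 0.11 missed the threshold (adjusted p = 0.0258). Within each of the 4 title runs at 24 h the joint libraries were higher than control, by 0.28 to 0.53, and with title run as a covariate the change passed (0.33, adjusted p = 0.000125), as it did on library totals (0.32, adjusted p = 0.0018) and in DESeq2 (0.35, adjusted p = 0.00929). It also passed without control 24 h replicate 3, the highest control (0.41, adjusted p = 0.00464). The difference between the joint response at 24 h and at 6 h was 0.77 ± 0.17 (adjusted p = 0.000651) and remained past the threshold under the 9 alternatives, from 0.68 to 0.86. Under EGF at 24 h MYC had a log2 change of 0.21 ± 0.11 (adjusted p = 0.379), with 467 CPM in the run 8 library and 621 to 729 CPM in the others.

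The paralogues MYCL and MYCN did not pass the test in any comparison of the fit over the 38 libraries. MYCL had 16.2 to 17.4 CPM in control and 13.4 to 17.7 CPM under AII + EGF at 6 h, and 17.97 to 23.6 and 20.1 to 25.6 CPM at 24 h. Between the controls of the 2 times the log2 difference of 0.24 ± 0.10 missed the threshold (adjusted p = 0.0585), which 21.1% of all genes passed. On library totals the difference passed (0.33, adjusted p = 0.00506). AII + EGF against AII at 6 h gave −0.28 ± 0.11 for MYCL (adjusted p = 0.0484), which passed with title run as a covariate (−0.27, adjusted p = 0.00663) and on library totals (−0.39, adjusted p = 0.00144). MYCL had the lowest unadjusted p of the members in the interaction at 6 h, described further on. For MYCN the log2 change under AII + EGF was −0.04 at 6 h with a 95% interval from −1.01 to 0.92, so changes within that range, either way, are not excluded. At 24 h the run 8 libraries of MYCN had 0.449, 0.844, 0.506 and 0.575 CPM in control, AII, EGF and AII + EGF, while no other 24 h library was below 1.19 CPM.

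MAX, the partner shared by the other members, differed at 24 h. Control libraries ranged from 56.7 to 73.4 CPM (median 62.8), and AII + EGF libraries from 43.3 to 54.3 CPM (median 45.7). Every joint library was below every control library, as for 4.73% of all genes in either direction. The log2 change was −0.44 ± 0.08, 1.36-fold lower (adjusted p = 0.000167), the only change among 9 members at 24 h, where 10.4% of all genes passed and 2.9% were called. It fell short of the 1.5-fold minimum. The EGF libraries had 53.1, 47.6, 46.02, 51.8 and 54.0 CPM, below every control too, but the change missed the threshold (−0.33 ± 0.09, adjusted p = 0.0338) where 0.586% of all genes passed and 0.245% were called (groups without overlap 1.53%), and it passed with title run as a covariate (−0.34, adjusted p = 0.000427). Under AII the level was 55.0 to 63.5 CPM (log2 change −0.09 ± 0.09, 95% interval −0.26 to 0.09). AII + EGF lay below AII by −0.35 ± 0.09 (adjusted p = 0.00573), with 4.64% of all genes passed and 1.45% called. Among single libraries left out, that difference stayed past the threshold only without AII 24 h replicate 1 or 2 or AII + EGF 24 h replicate 6, and it was lost under 4 of 8 other alternatives. Leaving out any of the other 8 libraries, AII 24 h replicates 3, 5 and 6 and AII + EGF 24 h replicates 1 to 5, gave adjusted p-values of 0.0117 to 0.0187. The difference between AII + EGF and EGF was −0.11 ± 0.09 (adjusted p = 0.69).

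The fall of MAX against control at 24 h held under all 8 alternatives (−0.44 to −0.42) and without any of the 12 libraries, and within each of the 4 title runs (−0.63 to −0.27). At 6 h MAX had 94.0, 84.1, 86.8 and 69.2 CPM in control and 78.6, 82.4, 94.1 and 103 CPM under AII + EGF, overlapping, with a log2 change of 0.10 ± 0.10. The joint response differed between the times by −0.54 ± 0.13 (adjusted p = 0.00158).

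MXD1 and MNT are the other members counted here as antagonists. MXD1, a MAD protein of differentiating cells, had 24.4, 28.9, 29.4 and 25.4 CPM in control and 29.2, 30.7, 33.01 and 34.7 CPM under AII + EGF at 6 h. Only the lowest joint library reached into the control range, and the log2 change of 0.24 ± 0.12 did not pass (adjusted p = 0.119). At 24 h control lay at 21.3 to 26.5 CPM (median 25.1), and 5 of the 6 joint libraries at 29.7 to 35.3 CPM, above every control, with 21.7 CPM in the sixth (replicate 6, title run 8). The log2 change of 0.34 ± 0.10 missed the threshold narrowly (adjusted p = 0.0108), and without AII + EGF 24 h replicate 6 it was 0.42 (adjusted p = 0.000401). It also passed with title run as a covariate (0.32, adjusted p = 0.00187), with RLE factors (0.36, adjusted p = 0.00697) and in DESeq2 (0.36, adjusted p = 0.00325).

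MNT, the broadly expressed MAX-binding repressor, had 38.3, 49.7, 37.5 and 51.9 CPM in control and 36.1, 40.6, 29.1 and 32.1 CPM under AII + EGF at 6 h. The groups overlapped (−0.37 ± 0.15, adjusted p = 0.066), and the change passed only with title run as a covariate (−0.40, adjusted p = 0.00959). At 24 h the control range was 35.8 to 53.6 CPM (median 43.2), and 5 joint libraries had 28.7 to 33.1 CPM, below every control, with replicate 6 of title run 8 at 44.3 CPM. The log2 change was −0.39 ± 0.13 (adjusted p = 0.0243). It was past the threshold without AII + EGF 24 h replicate 6 (−0.49, adjusted p = 0.00403), without control 24 h replicate 3 (−0.44, adjusted p = 0.00984) and with title run as a covariate (−0.38, adjusted p = 0.000504), and the joint libraries were lower within 4 of 4 runs. With that covariate, MAX, MYC, MXD1 and MNT thus all passed at 24 h. The share of all genes that passed with it was not recorded, so the count is not read as particular to these members.

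MGA, a MAX partner with both a T-box and a helix-loop-helix domain, was the only member that passed upward against control in the fit over the 38 libraries. At 6 h the control libraries had 74.5, 97.2, 94.2 and 89.7 CPM and the joint libraries 136, 135, 125 and 111 CPM. All joint libraries exceeded all controls. The change was 0.51 ± 0.14 (log2), 1.42-fold higher (adjusted p = 0.00421). AII libraries had 124, 125, 97.2, 102 and 107 CPM (0.32 ± 0.13, adjusted p = 0.282) and EGF libraries 94.0, 97.4 and 82.2 CPM (0.04 ± 0.15, adjusted p = 0.935). Replicates 1 and 2 of AII and of AII + EGF come from title run 1, for which no control was used, and were the highest of their groups. The joint change no longer passed without AII + EGF 6 h replicate 1 (adjusted p = 0.0155) or 2 (0.0147), and without control 6 h replicate 3 (0.0252) or 6 (0.0107). It also missed the threshold with title run as a covariate (0.39, adjusted p = 0.0325), on library totals (0.41, adjusted p = 0.0875) and with only title runs 4 and 5 at 6 h (0.40, adjusted p = 0.121). At 24 h MGA had 46.5 to 95.2 CPM in control (median 83.2) and 60.8 to 79.0 CPM under AII + EGF (median 73.9), and the log2 change was −0.11 ± 0.11 (adjusted p = 0.565).

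**Figure D2:**
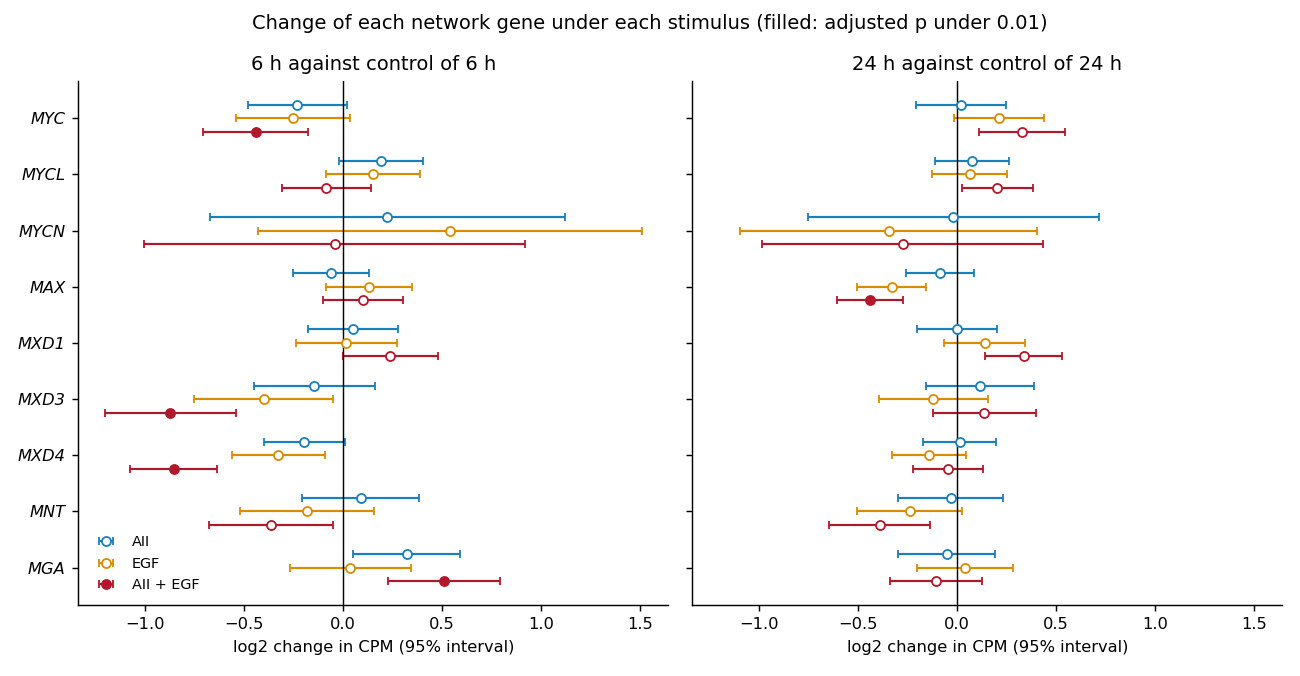
Log2 change in CPM (x axis) of each of the 9 genes (y axis) under AII, EGF and AII + EGF against the control of 6 h (left) and of 24 h (right), with 95% intervals, filled where the adjusted p was under 0.01. Filled points stand only under AII + EGF, for MYC (−0.44), MXD3 (−0.87), MXD4 (−0.86) and MGA (0.51) at 6 h and for MAX (−0.44) at 24 h.

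The next comparison was of the joint response at the 2 times. It differed for 5 of 9 members (16.4% of all genes passed, 7.59% higher and 8.84% lower), with MYC, MXD3 and MXD4 higher at 24 h relative to 6 h and MAX and MGA lower, and 4 of them were called (11.6% of all genes). The value for MGA, −0.62 ± 0.18 (adjusted p = 0.00978), was just past the threshold and was lost under 8 of 9 alternatives. It stayed past it only without AII + EGF 6 h replicate 5 or control 24 h replicate 2 or 3, and leaving out any of the other 17 libraries (control 6 h replicates 3 to 6, AII + EGF 6 h replicates 1 to 3, control 24 h replicates 1 and 4 to 6, and AII + EGF 24 h replicates 1 to 6) gave adjusted p-values of 0.01003 to 0.0326. MYCL (0.29 ± 0.14), MXD1 (0.10 ± 0.15), MNT (−0.03 ± 0.20) and MYCN (−0.23 ± 0.59) did not pass. MNT had nearly equal joint changes at 6 h (−0.37) and 24 h (−0.39), with a 95% interval of the difference from −0.43 to 0.38.

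**Figure D3:**
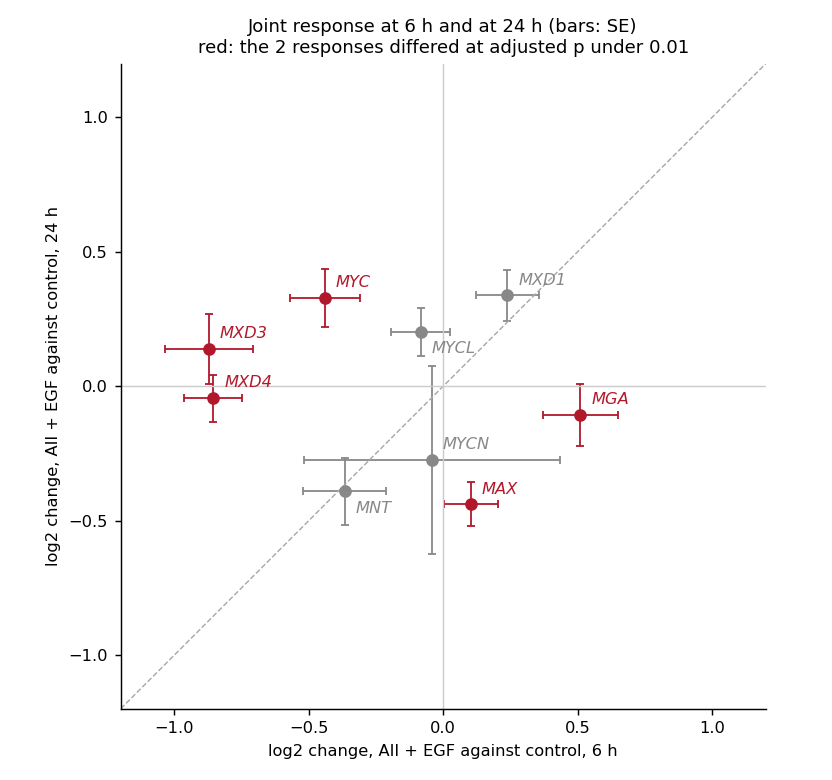
Log2 change under AII + EGF against control at 6 h (x axis) and at 24 h (y axis) for the 9 genes, with SE bars, the line of equal response dashed, and genes whose responses differed at an adjusted p under 0.01 in red. MXD3 and MXD4 lay far left of the vertical zero line and near the horizontal one, MYC lay left and above (−0.44 and 0.33), and MAX lay below (0.10 and −0.44).

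Whether the joint change exceeded the sum of the single changes was tested as the interaction of both stimuli on the log2 scale. At 6 h 0 of 9 members passed (0.265% of all genes, 0.229% called), and DESeq2 called 0. An unadjusted p under 0.05 was found for 2 members and for 1916 of all 19626 genes. The 2 members were MYCL (−0.43 ± 0.16, unadjusted p = 0.0104, adjusted p = 0.267) and MXD4 (−0.33 ± 0.15, unadjusted p = 0.0372, adjusted p = 0.457). For MXD3 the interaction was −0.33 ± 0.23 and for MYC 0.04 ± 0.19 (95% interval −0.34 to 0.42). At 24 h 0 members and 0 genes passed, with 0 members and 660 of all genes at an unadjusted p under 0.05. AII alone at 24 h likewise changed 0 members and 0 genes, with 0 members and 343 genes at an unadjusted p under 0.05. DESeq2 called 0 members in each of these comparisons, and 0 under EGF at 24 h. There edgeR passed 0 of 9, and only MAX among the members had an unadjusted p under 0.05, as had 2876 of all genes. AII + EGF against EGF at 24 h gave 0 of 9 in both tools, with 0 members at an unadjusted p under 0.05 (0.168% of all genes passed, 0.0917% called).

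Among untreated cells, MXD4 and MAX were lower at 24 h than at 6 h, 2 of 9 members where 21.1% of all genes passed (11.9% higher, 9.16% lower, 6.73% called). MXD4 fell from 219 ± 12.4 (SD, n = 4) to 162 ± 28.3 CPM (SD, n = 6), by 0.44 ± 0.10 on the log2 scale (adjusted p = 0.000679), and MAX from 83.5 ± 10.4 to 63.5 ± 6.46 CPM, by 0.39 ± 0.09 (adjusted p = 0.000978). The ranges of both genes overlapped between the times. Without control 6 h replicate 3 the change of MAX was −0.33 (adjusted p = 0.0104), and it missed the threshold with all 48 libraries (−0.22, adjusted p = 0.0944) and with only the groups compared (−0.37, adjusted p = 0.0311). MXD4 missed it with all 48 libraries (−0.34, adjusted p = 0.0244), with only the groups compared (−0.41, adjusted p = 0.0349) and on library totals (−0.35, adjusted p = 0.0112). No title run holds both times, so run and time cannot be told apart in this comparison.

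The summed level of the 4 antagonists MXD1, MXD3, MXD4 and MNT per MYC transcript, each per kilobase, described part of the balance in each library. It was 0.550 ± 0.0811 in control at 6 h (SD, n = 4), 0.587 ± 0.0720 under AII (n = 5), 0.523 ± 0.0172 under EGF (n = 3) and 0.447 ± 0.0170 under AII + EGF (n = 4). The joint libraries (0.431 to 0.470) lay below control (0.490 to 0.665). MXD4 made up 54.2% of the sum of these 4 genes under AII + EGF and 59.5% in control. At 24 h it was 0.570 ± 0.136 in control (n = 6) and 0.455 ± 0.0694 under AII + EGF (n = 6), with overlapping ranges. The run 8 library was the highest of its group in each of the 4 groups at 24 h. No test was made of this ratio of chosen members.

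**Figure D4:**
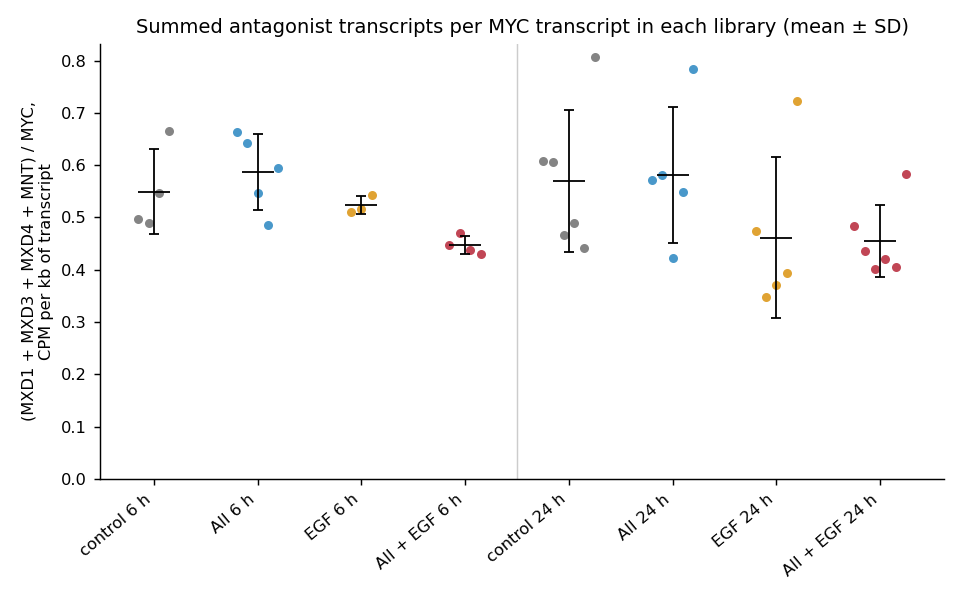
Summed CPM per kb of MXD1, MXD3, MXD4 and MNT divided by that of MYC (y axis, from 0) in each of the 38 libraries (dots) of the 8 groups (x axis), with mean and SD in black. The AII + EGF libraries at 6 h sat between 0.431 and 0.470, below the control libraries at 0.490 to 0.665, and at 24 h 1 library of each group stood above the rest.

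The genes whose group means followed those of a member most closely were named as a description over 8 group means, taken from 11728 genes above 5 CPM. They were INPP5K, PTGES2 and AGAP3 for MXD4 (Pearson's r 0.986 to 0.987), STK11, ILVBL and LHPP for MXD3 (0.992 to 0.996), ENSA, LLPH and ZW10 for MAX (0.997 to 0.998), SLC3A2 and REST for MGA (0.993 to 0.995), and UMAD1, H2BC21 and RNF123 for MYC (0.969 to 0.977). Among the members themselves MXD3 and MGA ran opposite (r = −0.88) and MAX ran with MGA (r = 0.78), while MYC and MXD4 had r = 0.44. The points share libraries and scaling.

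Other genes of the network and around it were counted from lists, to be read beside all tested genes. Of these, 12.4% rose and 11% fell under AII + EGF at 6 h and 10.4% passed in either direction at 24 h. Of 11 genes in a mixed list, 2 rose and 4 fell at 6 h, with a median log2 change of −0.06 against −0.03 for all genes. The list holds MXI1, MLX, MLXIP and MLXIPL of the MAX and MLX network, of which MLXIPL alone passed. It also holds TFAP4, USF1, USF2, TCFL5, HIF1A, EPAS1 and ARNT, which are not MAX or MLX partners. EPAS1, the hypoxia-inducible factor HIF-2α, rose by 2.01 ± 0.17 from 8.77 to 35.3 CPM (adjusted p = 2.42e-12), and HIF1A by 0.31 ± 0.09 (adjusted p = 0.00505). MLXIPL, the glucose-responsive ChREBP, fell by 1.08 ± 0.22, TCFL5 by 0.58 ± 0.07 and USF2 by 0.47 ± 0.12. At 24 h EPAS1 alone passed among the 11 (0.79 ± 0.13, adjusted p = 2.87e-05). MXI1, the remaining MAD family gene, had a log2 change of 0.05 ± 0.14 at 6 h and 0.07 ± 0.11 at 24 h.

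Of 17 MYC coactivators, 3 rose at 6 h under AII + EGF, among them TRRAP, the scaffold of histone acetyltransferase complexes (0.78 ± 0.14, adjusted p = 1.71e-05), and CCNT1 (0.37 ± 0.10), and 1 fell, the acetyltransferase KAT5 (−0.51 ± 0.12). At 24 h CREBBP fell by 0.35 ± 0.09. Of the 15 SIN3 and HDAC corepressors through which MXD and MNT proteins act, 0 passed in edgeR at 6 h (3 at an unadjusted p under 0.05, and 1 passed in DESeq2) and 1 at 24 h, HDAC1 (−0.56 ± 0.08, adjusted p = 2.42e-06). Of 11 PRC1.6 partners of MGA, YAF2 (0.57 ± 0.12) and E2F6 (0.42 ± 0.11) rose at 6 h, and RING1, a ubiquitin ligase of Polycomb complexes (−1.14 ± 0.15), and TFDP2 (−0.36 ± 0.08) fell, with a median of 0.28. L3MBTL2 fell by 0.49 ± 0.10 at 24 h. Of 16 tested genes of MYC protein turnover, SET rose (0.44 ± 0.12) and TRIM32 fell (−0.36 ± 0.10) at 6 h, and 0 passed in edgeR at 24 h, where 3 had an unadjusted p under 0.05 and 1 passed in DESeq2.

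Of 6 tested genes listed as next to or antisense to members, 0 passed at either time in edgeR or DESeq2. At each time 1 had an unadjusted p under 0.05, MYCBP2 at 6 h (0.44 ± 0.15) and MYCBP at 24 h (−0.24 ± 0.11). These 2 encode MYC-binding proteins and are not neighbours of a member. The others were PVT1, FUT8, CASC11 and MYCNOS, the last 2 low in control at 6 h (0.520 and 0.174 CPM). PVT1, the non-coding neighbour of MYC, had a log2 change of 0.08 ± 0.16 at 6 h, beside −0.44 for MYC. Whether counting used the strand was not stated, so reads of a gene and its antisense partner may be mixed.

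Of 60 genes known as activated by MYC, 23 rose and 0 fell under AII + EGF at 6 h, with a median log2 change of 0.45, in the condition in which MYC was lower. EGF alone raised 6 of 60 (median 0.29), AII alone 1 (median −0.06), where 3.37% and 0.922% of all genes passed. Over the alternatives the joint count ran from 10 (40 libraries) to 38 (title run as a covariate), with medians of 0.34 to 0.48, and that for EGF from 0 (40 libraries) to 19 (all 48 libraries). The largest rises were TFRC, the transferrin receptor (2.08 ± 0.21), HK2, a hexokinase (2.05 ± 0.20), and LDHA, lactate dehydrogenase A (1.39 ± 0.31). All 3 are also known targets of hypoxia-inducible factors. At 24 h, when MYC had a log2 change of 0.33, 0 rose and 1 fell in edgeR (UTP20, −0.52 ± 0.12), with a median of −0.11 against −0.02 for all genes, 15 genes at an unadjusted p under 0.05, and 1 higher and 1 lower in DESeq2. With title run as a covariate 2 rose and 9 fell. Of 13 genes known as repressed by MYC, 6 rose and 3 fell at 6 h, led by NDRG1 (2.58 ± 0.35), THBS1 (2.09 ± 0.27, mean 3.07 CPM) and GADD45B (1.86 ± 0.18), while GAS1 (−0.52 ± 0.13), CDKN1B (−0.50 ± 0.10) and KLF4 (−0.32 ± 0.09) fell. At 24 h 4 rose, among them GADD45B (0.53 ± 0.15), KLF6 (0.41 ± 0.09) and GADD45A (0.36 ± 0.10). Activated and repressed targets both had a positive median at 6 h (0.45 and 0.34). Which factor was behind the changes in these lists was not tested.

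Of 5 targets of MLX and MondoA, glucose-sensing E-box factors outside the MAX arm, HK2 (2.05, also in the list above), ARRDC4 (1.83 ± 0.29), PFKFB3 (0.96 ± 0.14) and KLF10 (0.92 ± 0.25) rose at 6 h and TXNIP fell by 1.39 ± 0.29. At 24 h TXNIP (0.89 ± 0.23) and ARRDC4 (1.18 ± 0.23) were higher. CACGTG stood in the promoter window of 16 of the 50 MYC-activated genes with an entry, of 3 of 9 MYC-repressed genes and of 3 of 4 MLX and MondoA targets, against 7.73% of all 27305 genes with an entry. Shares differed among the lists that are not targets. MYC protein turnover had 4 of 13 genes and MYC coactivators 3 of 11, like the MYC targets. Corepressors had 1 of 13, PRC1.6 partners 1 of 11, the mixed list with MAX and MLX network genes 1 of 10, and the list with neighbouring or antisense genes 0 of 5.

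**Figure D5:**
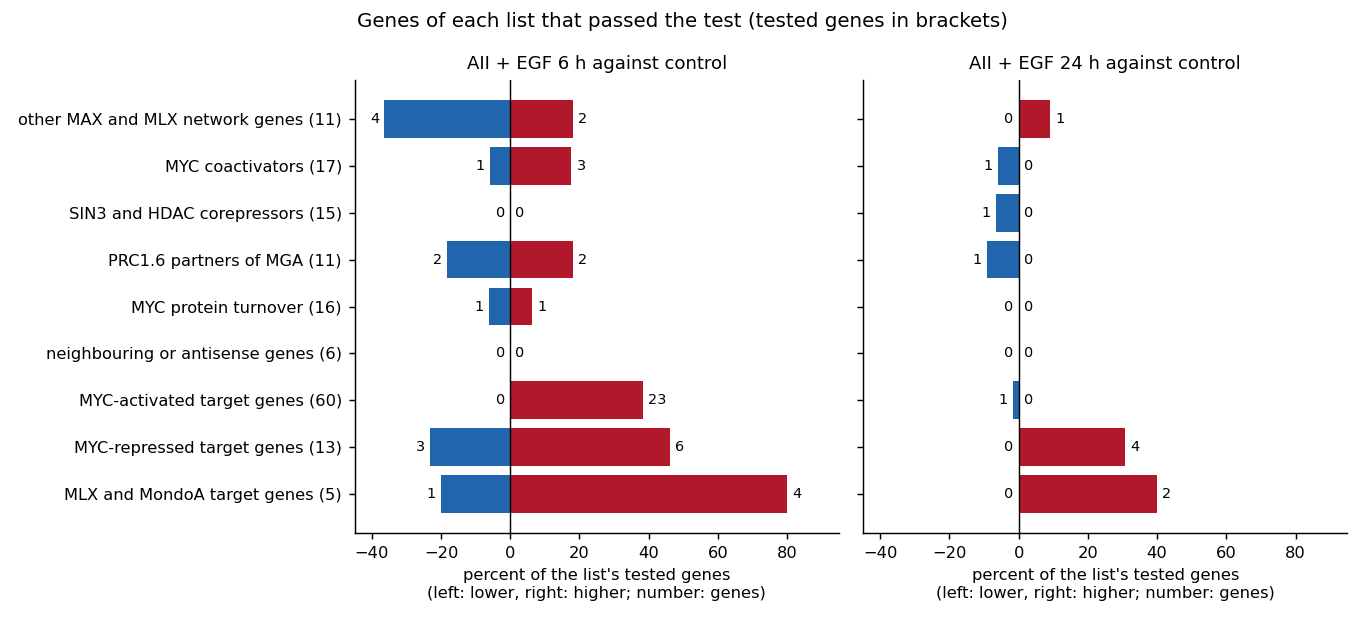
Percent of the tested genes of each of the 9 lists (y axis, number tested in brackets) that passed the test higher (red, right) or lower (blue, left) under AII + EGF at 6 h (left panel) and 24 h (right panel), with the number of genes at each bar. The MYC-activated targets had 23 of 60 higher and 0 lower at 6 h, and 0 higher and 1 lower at 24 h. The bar of other MAX and MLX network genes is the mixed list, which also holds factors outside that network. That of neighbouring or antisense genes also holds MYCBP and MYCBP2, which are not neighbours.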

How the data were processed

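Poly(A) RNA of AT1R-expressing HEK293 cells was sequenced as paired-end reads. The authors mapped reads with HISAT2 2.1.0 to hg38 and deposited raw counts per Ensembl gene from featureCounts, without normalization, in 1 table that held 0 count columns outside the samples. Strand setting and treatment of multi-mapping reads are not given in the sources used here. Library totals were 17.8 to 36.2 M counts over the 48 libraries.

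Groups came from the sample labels, and replicate numbers follow the order of deposition. Counts were fitted with edgeR 4.0.16 in R 4.3.3 (filterByExpr, TMM factors, 1 quasi-likelihood fit over the 38 libraries, no covariate) with Benjamini-Hochberg adjustment over 19626 genes. The comparisons were each stimulus against control, AII + EGF against AII and EGF, the interaction at each time, control at 24 h against 6 h, and the joint response at 24 h minus 6 h. Steps were tested on simulated data. CPM were scaled with TMM factors. SE and 95% intervals came from the fit. The 9 members, the gene lists and the tests were chosen with earlier results of these data known. The text names all members, up to 3 risers and 3 fallers of each list that passed under AII + EGF at each time, and the 3 genes most like each member that passed against control. Some genes that this rule selects are not reported here. KLF10, MXI1, PVT1, CASC11, MYCNOS, MYCBP and MYCBP2 fall outside that rule and were named after their values were seen. Of the listed genes, USP36, MAX-AS1 and MXD1-AS1 had no row under these names.

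Alternatives were all 48 libraries, 40 libraries (the pairs left out), RLE factors, no filter on low counts, title run as a covariate, only the groups compared, DESeq2 1.42.0 alone and in intersection, an adjusted p under 0.05, no fold and abundance minimum, and each library left out. Library totals without factors and title runs 4 and 5 alone at 6 h were chosen after seeing the data. Positions and promoters are from RefSeq (GRCh38.p14). Transcript lengths are of the GENCODE canonical transcript.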

Additional observations from a re-analysis of the deposited data

Results flagged for a closer look

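The joint response against control differed between 24 h and 6 h, by edgeR's test of the difference itself, for MYC (0.77 on the log2 scale), MXD3 (1.01), MXD4 (0.81), MAX (−0.54) and MGA (−0.62). MYC went from −0.44 at 6 h to 0.33 at 24 h, and MXD3 and MXD4 from −0.87 and −0.86 to 0.14 and −0.04.

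In 3 of 63 groups of libraries, 1 library lay far from the others by Dixon's criterion, which chance gives in about 1 of 20 groups. MXD1 had 19.7 CPM in 1 EGF 24 h library, with the next at 27.3 CPM. MXD4 had 167 CPM in 1 EGF 24 h library, with the next at 145 CPM. MNT had 44.3 CPM in 1 AII + EGF 24 h library, with the next at 33.1 CPM. All 3 are replicate 6 of their group, from title run 8.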

How the results depend on the processing

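No member's change that passed the test reversed under an alternative. The number of members called under AII + EGF at 6 h was 2, and 1 with only title runs 4 and 5 at 6 h. Against AII at 6 h it was 2, but 0 with all 48 libraries, 0 with 40 libraries and 1 with title runs 4 and 5. For the joint response at 24 h minus 6 h it was 4, but 2 both with 40 libraries and with title runs 4 and 5, and 3 with RLE factors, without the filter, with title run as a covariate, on library totals and with only the groups compared. Without the fold and abundance minimum it was 4 instead of 2 under AII + EGF at 6 h, 2 instead of 0 for control at 24 h against 6 h, and 1 instead of 0 for AII + EGF against control at 24 h, against EGF at 6 h and against AII at 24 h. Leaving out single libraries gave 3 to 4 for the joint response at 24 h minus 6 h, 2 throughout for AII + EGF at 6 h against control and against AII, and 0 throughout for the other comparisons.

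On library totals without factors the median of all genes shifted from −0.03 to −0.14 under AII + EGF at 6 h, where MXD4 was at −0.96 and MYC at −0.54, and from −0.01 to −0.11 under EGF at 6 h. For control at 24 h against 6 h it shifted from 0.03 to 0.12, and for AII + EGF against AII at 6 h from −0.02 to −0.14. Title run could not be fitted for control at 24 h against 6 h, since each run holds 1 time. Libraries could not be paired by replicate number, because the labels carry none. Title run as a covariate blocks on stretches of sample titles instead, and with it MYC, MXD1 and MNT under AII + EGF and MAX under EGF passed at 24 h, where they had not without it. The share of all genes that passed with the covariate was not recorded. List medians near 0 turned negative on library totals under AII + EGF at 6 h (corepressors 0.04 to −0.06, turnover 0.06 to −0.04, the list with neighbouring genes 0.07 to −0.03). MAX lost its difference between the joint responses with 40 libraries (−0.48), without the filter (−0.52) and with only the groups compared (−0.52), and MXD3 with 40 libraries (0.79) and with title runs 4 and 5 (0.86). The cause of these changes was not tested. Depth limits MYCN, with 7 to 60 counts per library.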

Other observations

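The libraries left out of the comparisons had these levels, scaled over all 48 libraries. Control 6 h replicates 1 and 2, each near-identical to a 24 h library, had 55.5 and 61.1 CPM of MAX, and their counterparts EGF 24 h replicate 2 and AII 24 h replicate 4 had 56.8 and 60.6 CPM. The library labelled AII 6 h replicate 6 had 141 CPM of MXD4, 18.7 CPM of MXD3, 106 CPM of MGA and 467 CPM of MYC. The library labelled AII + EGF 6 h replicate 6 had 177, 25.8, 104 and 532 CPM of the same genes. EGF 6 h replicates 2 and 6, a near-identical pair, both had 191 CPM of MXD4, with 32.2 and 32.1 CPM of MXD3. The pair of EGF 6 h replicate 1 with replicate 4 of AII + EGF 6 h had 141 and 142 CPM of MXD4, and 16.9 and 16.8 CPM of MXD3.

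The title run 8 library was the lowest of its 24 h group for MYC in 4 of 4 groups. Its levels were 481 CPM (control), 478 CPM (AII), 467 CPM (EGF) and 584 CPM (AII + EGF). For MXD3 it was the highest of its group, with 37.9, 38.4, 37.7 and 36.5 CPM in that order. On library totals the run 8 library of AII + EGF had 652 CPM of MYC and was not the lowest of its group (633 CPM).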
